A study of Homo sapiens with 12 samples.

Results

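The imprinted growth genes described here are IGF2, CDKN1C, PHLDA2, PEG3, PEG10, DLK1, NDN, MAGEL2, MEST and PLAGL1. They were taken from the authors' deposited tables by symbol, and identifiers that share a symbol were kept apart. Of the 10 genes, 9 had a row in motor neurons, as 11 of 16406 identifiers, and all 10 had a row in excitatory neurons, as 12 of 19016 identifiers. The genes were selected on their fold changes in these same comparisons, among them that of PHLDA2 in excitatory neurons, so their fold changes are given as descriptions with standard errors and without a test.

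RNA-seq was used to ask what loss of SMN, the protein lacking in spinal muscular atrophy, does to the RNA of human neurons. Motor neurons (iMNs) were made from 1 iPSC line with Td-Tomato under the HB9 promoter and were isolated by FACS, and excitatory neurons (i3Ns) were made from H1, an established ES cell line, by inducible NGN2. Both received lentivirus with a doxycycline-induced shRNA, either against SMN1 and SMN2 (SMN-KD) or scrambled (SCR), and RNA was harvested after 12 days of knockdown. Each of the 4 groups, iMN SCR, iMN SMN-KD, i3N SCR and i3N SMN-KD, had 3 libraries, 12 in all. The SCR cells thus carried the vector and an shRNA too. The labels do not say whether the libraries of a group came from separate cultures, so the standard errors measure the spread between these libraries, which may be technical.

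Values per library were not analysed here, and total counts per library are unknown. Each level is therefore a group mean in normalized counts, derived from the mean over 6 libraries and the log2 fold change, which is positive where SMN-KD is higher than SCR. The identifiers of SMN1 and SMN2, near-identical genes whose reads cannot be told apart well, summed to 1923 in SCR and 424 in SMN-KD iMNs, 77.9% lower, and to 1839 and 318 in i3Ns, 82.7% lower. The labels call the i3Ns cortical neurons, yet motor neuron markers were present in both cell types. The mean over 6 libraries of ISL1 was 1663 in iMNs and 14299 in i3Ns, and that of MNX1 (HB9) was 430 and 2279. ISL2, LHX3 and CHAT also had higher SCR means in i3Ns. Other listed motor neuron markers went the other way. The SCR mean of SLC5A7 was 10716 in iMNs and 3873 in i3Ns, that of SLC18A3 3499 and 2093, and that of PRPH 6669 and 2530. The tables were normalized separately, and cell type, stem cell line and protocol cannot be told apart.

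Imprinted genes are expressed mainly from the copy inherited from one parent, and many lie in clusters where a methylated control region sets which copy is read. Genes read from the paternal copy often promote fetal growth, and genes read from the maternal copy often restrain it. In the brain, several of these genes act in neuron survival, neuroendocrine function and the timing of differentiation. RNA-seq of whole transcripts as used here does not show which parental copy an RNA came from.

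In i3Ns, the largest differences among the imprinted growth genes were in PHLDA2 and IGF2, whose means in SMN-KD were 97.5% and 92.1% lower than in SCR, with both identifiers of PHLDA2 summed. CDKN1C was 64.9% lower with its identifiers summed, and PEG10 was 49.2% lower. In iMNs the picture differed: DLK1 was 2.11-fold higher, PEG10 was 40.6% lower, MAGEL2 was 36.4% lower, and IGF2 and CDKN1C were 31.1% and 30.1% lower. NDN was higher in both cell types.

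A gene is called here when its adjusted p-value in the authors' deposited table is under 0.01 and its absolute log2 fold change is above 1. In iMNs, 2 of 11 identifiers of the imprinted growth genes were called, DLK1 and the second identifier of PHLDA2, both higher in SMN-KD, beside 3.34% of all identifiers in that table. In i3Ns, 5 of 12 were called, IGF2 and both identifiers of CDKN1C and of PHLDA2, all lower in SMN-KD, beside 13.8% of all identifiers. The median log2 fold change over the identifiers of the imprinted growth genes was -0.03 in iMNs and -0.89 in i3Ns, beside medians over all identifiers of 0.0013 and 0.010. At an adjusted p-value under 0.01 alone, 8 of 11 passed in iMNs, beside 35.8% of all identifiers, and 9 of 12 in i3Ns, beside 48.5%. These counts and medians describe the genes as they were picked.

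**Figure D1:**
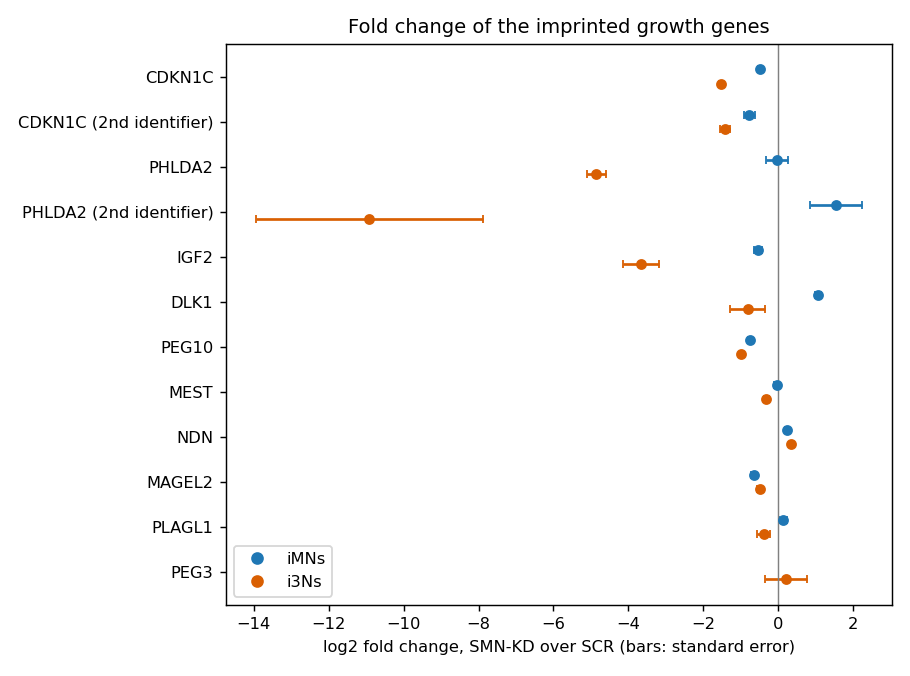
Log2 fold change between SMN-KD and SCR (x axis) for each identifier of the imprinted growth genes (y axis), in iMNs (blue) and i3Ns (orange). Points are the values in the authors' deposited tables and bars are their standard errors, with 3 libraries a group. PHLDA2 and IGF2 lie far below 0 in i3Ns and near or just below 0 in iMNs, except the second identifier of PHLDA2, at 1.55 in iMNs and at -10.91 in i3Ns.

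PHLDA2 encodes a small protein with a pleckstrin homology domain and is known, from its maternal copy, for restraining growth of the placenta. It lies on the minus strand at chr11:2928273-2929420 (GRCh38). In i3Ns the mean of its main identifier, ENSG00000181649, was 450 normalized counts in SCR and 15.6 in SMN-KD, a log2 fold change of -4.85 ± 0.26 (SE, n = 3 a group). In iMNs the same identifier had means of 86.9 and 85.6, a log2 fold change of -0.02 ± 0.28. The difference between the log2 fold changes, i3Ns minus iMNs, was -4.83 ± 0.38 (SE). In iMNs its fold change over standard error was far below the z behind the p-value, as described with the levels below. If this fold change was shrunken, the means derived from it are drawn together likewise.

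The second identifier of PHLDA2, ENSG00000274538, is outside the main annotation of GENCODE 44 and has no position here. Reads of one gene can be split between such identifiers. In i3Ns its mean was 167 in SCR and 0.086 in SMN-KD, under 1 normalized count, so the size of its log2 fold change of -10.91 ± 3.02 is not well determined. In iMNs its mean was 24.8 in SCR and 72.4 in SMN-KD, a log2 fold change of 1.55 ± 0.70. With both identifiers summed, PHLDA2 went from 617 to 15.7 in i3Ns, 39.3 times lower, and from 112 to 158 in iMNs, a log2 ratio of 0.50. The summed values have no standard error, and the summed value in iMNs rests on the second identifier.

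CDKN1C encodes p57, an inhibitor of cyclin-dependent kinases that holds cells out of the cell cycle, and it is expressed from the maternal copy. It lies close to PHLDA2, at chr11:2883213-2885775 on the minus strand. In i3Ns the mean of ENSG00000129757 was 6081 in SCR and 2112 in SMN-KD, a log2 fold change of -1.53 ± 0.05. In iMNs it was 3159 and 2274, a log2 fold change of -0.47 ± 0.05. The second identifier, ENSG00000273707, also outside the main annotation, gave log2 fold changes of -1.41 ± 0.14 in i3Ns and -0.77 ± 0.15 in iMNs. CDKN1C was thus lower in SMN-KD under both identifiers and in both cell types, with differences between the cell types (i3Ns minus iMNs) of -1.05 ± 0.07 and -0.64 ± 0.20.

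IGF2, a fetal growth factor expressed from the paternal copy, lies in the neighbouring domain of the same chromosome arm, at chr11:2129112-2158391 on the minus strand. In i3Ns its mean was 1324 in SCR and 105 in SMN-KD, a log2 fold change of -3.66 ± 0.48. In iMNs its mean was 1243 in SCR and 857 in SMN-KD, a log2 fold change of -0.54 ± 0.10. The difference between the cell types was -3.13 ± 0.49. The SCR means of IGF2 were of like size in the 2 tables, although these were normalized separately.

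DLK1, a membrane protein related to Notch ligands that is read from the paternal copy, lies at chr14:100725705-100738224 on the plus strand. In iMNs its mean was 814 in SCR and 1720 in SMN-KD, a log2 fold change of 1.08 ± 0.08. In i3Ns DLK1 was weakly expressed, with means of 40.9 and 23.4 and a log2 fold change of -0.81 ± 0.47. The difference between the cell types was -1.88 ± 0.47. The sign of the estimate was opposite, but the 95% interval in i3Ns, from -1.72 to 0.11, included no change.

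PEG10, a gene derived from a retrotransposon that is essential for the placenta, is paternally expressed and lies at chr7:94656325-94669695 on the plus strand. Its mean went from 63317 to 37626 in iMNs, a log2 fold change of -0.75 ± 0.04, and from 48276 to 24539 in i3Ns, a log2 fold change of -0.98 ± 0.03. The difference between the cell types was -0.23 ± 0.05. MEST, a paternally expressed gene of the alpha/beta hydrolase fold family at chr7:130486171-130506465 on the plus strand, had means of 4525 and 4427 in iMNs, a log2 fold change of -0.03 ± 0.07. In i3Ns its means were 2737 and 2208, a log2 fold change of -0.31 ± 0.06.

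NDN and MAGEL2, paternally expressed members of the MAGE family, lie next to each other on the minus strand, at chr15:23685400-23687305 and chr15:23643549-23647867, in the region lost in Prader-Willi syndrome. NDN (necdin), which promotes neuronal differentiation and survival, was higher in SMN-KD in both cell types, with means of 4306 and 5049 in iMNs and of 3517 and 4510 in i3Ns. Its log2 fold changes were 0.23 ± 0.05 and 0.36 ± 0.05. MAGEL2, which acts with a ubiquitin ligase in the sorting of endosomal proteins, was lower in both, with means of 5038 and 3202 in iMNs and of 2010 and 1436 in i3Ns. Its log2 fold changes were -0.65 ± 0.06 and -0.48 ± 0.07. These neighbours thus differed in sign in both cell types, by less than 1 on the log2 scale each.

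PLAGL1, a zinc finger transcription factor that is paternally expressed, lies at chr6:143940300-144064599 on the minus strand. Its means were 906 and 996 in iMNs, a log2 fold change of 0.14 ± 0.10, and 204 and 157 in i3Ns, a log2 fold change of -0.38 ± 0.18. PEG3, another paternally expressed zinc finger gene, at chr19:56810077-56840728 on the minus strand, had no row in the iMN table. In i3Ns its means were 20.1 and 23.2, a log2 fold change of 0.21 ± 0.56, so that a change of PEG3 was not detectable at this depth.

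**Figure D2:**
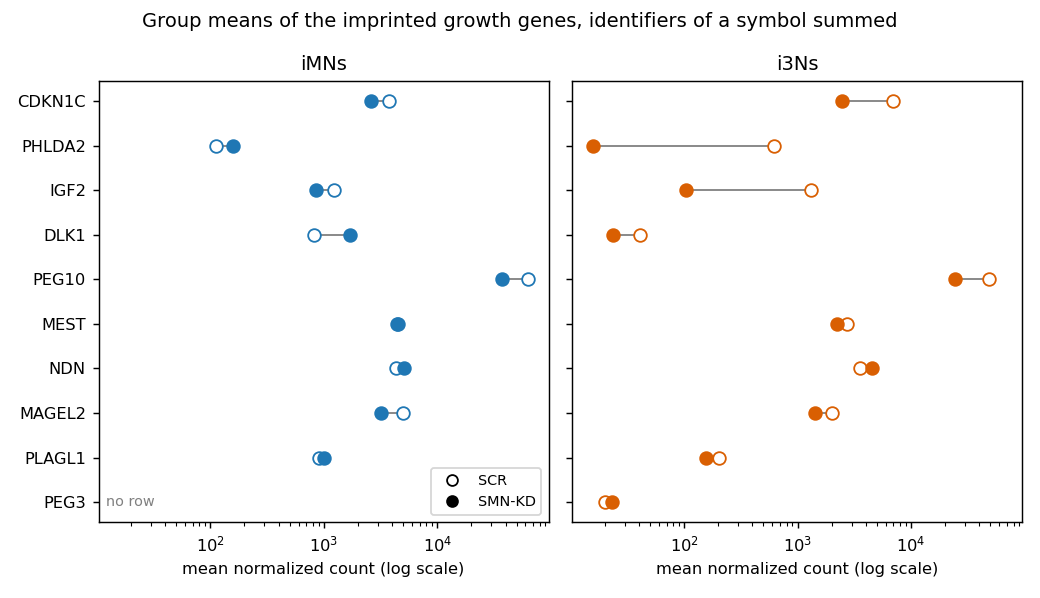
Mean normalized count (x axis, log scale) of each imprinted growth gene (y axis) in SCR (open) and SMN-KD (filled) neurons, iMNs on the left and i3Ns on the right. Identifiers of a symbol are summed and each point is a mean over 3 libraries, derived from the authors' deposited table, without an error bar. The long distances are those of PHLDA2, from 617 to 15.7, and IGF2, from 1324 to 105, in i3Ns.

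Levels were compared between genes after division by the length of the reference transcript. PEG10 stood at 19525 normalized counts per kilobase in iMNs and 14084 in i3Ns, above 99.8% and 99.5% of the genes with a length. The PEG10 transcript used has 2585 bases with a 3′-UTR of 16, while the longest annotated 3′-UTR has 5161. Its values per kilobase may therefore be too high. CDKN1C, NDN and MEST lay between percentiles 79.5 and 93.5 in both tables. DLK1 had 272 normalized counts per kilobase in iMNs (percentile 46.3) and 6.91 in i3Ns (percentile 13.1). PHLDA2 was at percentile 28.0 in iMNs and 48.3 in i3Ns, and PEG3, at 2.47 normalized counts per kilobase, was at percentile 6.84 in i3Ns. For imprinted growth genes with a mean normalized count under 100, among them PEG3, DLK1 in i3Ns and PHLDA2 in iMNs, fold change over standard error was smaller than the deposited p-values imply. It was 0.091 to 0.762 of the z behind the p-value for these 5 values, and 0.928 to 0.999 for the imprinted growth genes above that level. Whether a shrunken fold change or a large standard error lay behind the low ratios was not separated.

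An shRNA can lower other RNAs whose 3′-UTR pairs with the start of its guide strand, so the 3′-UTRs were searched on the sense strand for GCTAATA and CTAATAA, which pair with bases 3 to 9 and 2 to 8 of the SMN guide and overlap in all but 1 base. The matching letters of the scrambled guide, ACTAGTA and CTAGTAA, were searched too. The guide was taken to start opposite the last base of the target. The sites found in imprinted growth genes are shown with that of SNRPN, a neighbour described below. Capitals mark the match, read 5′ to 3′ on the strand of the gene, from GENCODE 44 on GRCh38.
IGF2: ctcctttaacGCTAATAtttccggcaa
PEG3: aatgttgcagGCTAATAAcctttcatca
SNRPN: attaataataGCTAATAAtaaatgcata
PLAGL1: gtggcactgcCTAGTAAgggaactatg

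The IGF2 match is at chr11:2129197-2129203 in exon 4 of 4, at bases 3784 to 3790 of a 3′-UTR of 3870 bases. That of PEG3 is at chr19:56812637-56812644 in exon 10 of 10, and that of SNRPN at chr15:24978549-24978556, also in exon 10 of 10. The PLAGL1 match, to the scrambled guide, is at chr6:143941068-143941074 in exon 8 of 8. Among the imprinted growth genes with a row, 1 of 9 in iMNs and 2 of 10 in i3Ns held a match to the SMN guide, beside 18.9% and 18.4% of all genes with a 3′-UTR. None of the 4 motifs was in the 3′-UTRs used for CDKN1C, PHLDA2, DLK1, NDN, MAGEL2 and MEST, and the 3′-UTR of the PEG10 transcript used has 16 bases. In the longest annotated 3′-UTR of PEG10, with 5161 bases, a match to the SMN guide was present. A match is a description of letters and not a site of action.

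The genes beside the imprinted growth genes were read from lists of each cluster, and for these genes the authors' adjusted p-values are given. These lists and those below were chosen with earlier results of these data known. The p-values are therefore no independent support. Of 49 listed neighbours, 23 had a row in iMNs and 25 in i3Ns, as 25 and 27 identifiers. In iMNs 4 identifiers were called lower and none higher, beside 2.37% of all identifiers called lower and 0.969% called higher. In i3Ns 5 were called lower and none higher, beside 9.53% and 4.23%. At an adjusted p-value under 0.01 alone, 6 identifiers fell and 1 rose in iMNs, beside 18.7% and 17.1% of all identifiers, and 9 fell and 3 rose in i3Ns, beside 25.7% and 22.8%. The long noncoding RNAs H19, KCNQ1OT1, MEG3 and HYMAI and the gene ZIM2 were not analysed here.

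SLC22A18, a transporter gene between CDKN1C and PHLDA2 that is also read from the maternal copy, fell in i3Ns. Its mean in i3Ns was 62.1 in SCR and 0.374 in SMN-KD, a log2 fold change of -7.37 ± 1.35 (adjusted p = 3.58e-09 from the authors' DESeq2 test), of which the size is not well determined because the mean in SMN-KD was under 1. In iMNs it went from 393 to 272, a log2 fold change of -0.53 ± 0.14 (adjusted p = 8.46e-05 from the same test). Its second identifier was called lower in i3Ns too, at -2.56 ± 0.60, and was at -0.40 ± 0.28 in iMNs (adjusted p = 0.076, DESeq2). On the far side of PHLDA2, the histone chaperone gene NAP1L4 fell by 0.44 ± 0.04 on the log2 scale in i3Ns and was at -0.10 ± 0.04 in iMNs (adjusted p = 0.027, DESeq2). On the side of CDKN1C, the next measured gene is the potassium channel gene KCNQ1, at low counts, with a log2 fold change of -0.77 ± 0.58 in i3Ns (adjusted p = 0.078, DESeq2). Beyond it, TSSC4 rose by 0.44 ± 0.08 in i3Ns, and ASCL2, with a mean over 6 libraries of 4.69, was at -1.89 ± 2.53 (adjusted p = 0.026, DESeq2). CDKN1C, SLC22A18 and PHLDA2 thus all had means in SMN-KD i3Ns well below SCR. NAP1L4, KCNQ1, TSSC4 and ASCL2 were named after their values were seen.

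In the DLK1 cluster on 14q32, the direction in iMNs differed between DLK1 and its neighbours. RTL1, a retrotransposon-derived gene needed for placental vessels, had a mean of 3692 in SCR and 1014 in SMN-KD iMNs and fell by 1.86 ± 0.08 on the log2 scale (adjusted p = 2.15e-114, DESeq2). DIO3, which inactivates thyroid hormone, went from 2225 to 927 and fell by 1.26 ± 0.13 (adjusted p = 7.51e-23, DESeq2). BEGAIN, at the edge of the cluster, fell by 0.49 ± 0.06 (adjusted p = 1.94e-16, DESeq2) and was named after its value was seen. DLK1 itself was higher, at 1.08 ± 0.08. In i3Ns DLK1, RTL1 and DIO3 were weakly expressed, with means over 6 libraries of 32.2 for DLK1, 6.54 for RTL1 and 21.8 for DIO3, where iMNs had 1267, 2353 and 1576. DIO3 was called lower in i3Ns too, at -1.35 ± 0.60 (adjusted p = 0.0060, DESeq2), and RTL1 was at 0.01 ± 0.51, with too few counts to show a change. BEGAIN, with a mean of 585 over the i3N libraries, fell there by 0.39 ± 0.13 (adjusted p = 0.0041, DESeq2).

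In the cluster of NDN and MAGEL2 on 15q11-q13, SNRPN had the largest fold change of the genes measured. SNRPN encodes a core protein of spliceosomal snRNPs, the particles that SMN helps assemble, and is read from the paternal copy. Its mean was 20372 in SCR and 3803 in SMN-KD iMNs, a log2 fold change of -2.42 ± 0.05, and 8893 and 2641 in i3Ns, a log2 fold change of -1.75 ± 0.04, with an adjusted p listed as 0 in both of the authors' tables. SNRPN carries the longer, overlapping match to the SMN guide shown above. The bases beside its capitals, ta before and t after, also match the target of the SMN shRNA, which was not part of the search. The part of that match in the fall of SNRPN was not tested. SNURF, which shares its transcript with SNRPN and whose reads can be confused with it, was at -0.46 ± 0.32 and 0.21 ± 0.27 and was named after its values were seen. UBE3A, a ubiquitin ligase read from the maternal copy in neurons, was at 0.06 ± 0.04 in iMNs and rose by 0.29 ± 0.03 in i3Ns (adjusted p = 2.94e-20, DESeq2). Within this cluster the paternally expressed genes thus included SNRPN and MAGEL2, lower in SMN-KD, and NDN, higher.

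Beside PEG10 on 7q21, SGCE, a sarcoglycan gene that starts next to it and is also read from the paternal copy, was at -0.07 ± 0.10 in iMNs and -0.05 ± 0.07 in i3Ns (adjusted p = 0.59 and 0.61, DESeq2). The 95% intervals of its log2 fold change reached down to -0.25 and -0.18, while PEG10 was at -0.75 and -0.98. TFPI2, a protease inhibitor gene of the same region, was called lower in both, from 26.6 to 10.3 in iMNs and from 27.8 to 4.94 in i3Ns, at low counts. Beside MEST on 7q32, COPG2, a subunit of the COPI coat, was at -0.16 ± 0.06 in iMNs (adjusted p = 0.018, DESeq2) and fell by 0.27 ± 0.06 in i3Ns (adjusted p = 6.00e-06, DESeq2), close to the value of MEST there.

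**Figure D3:**
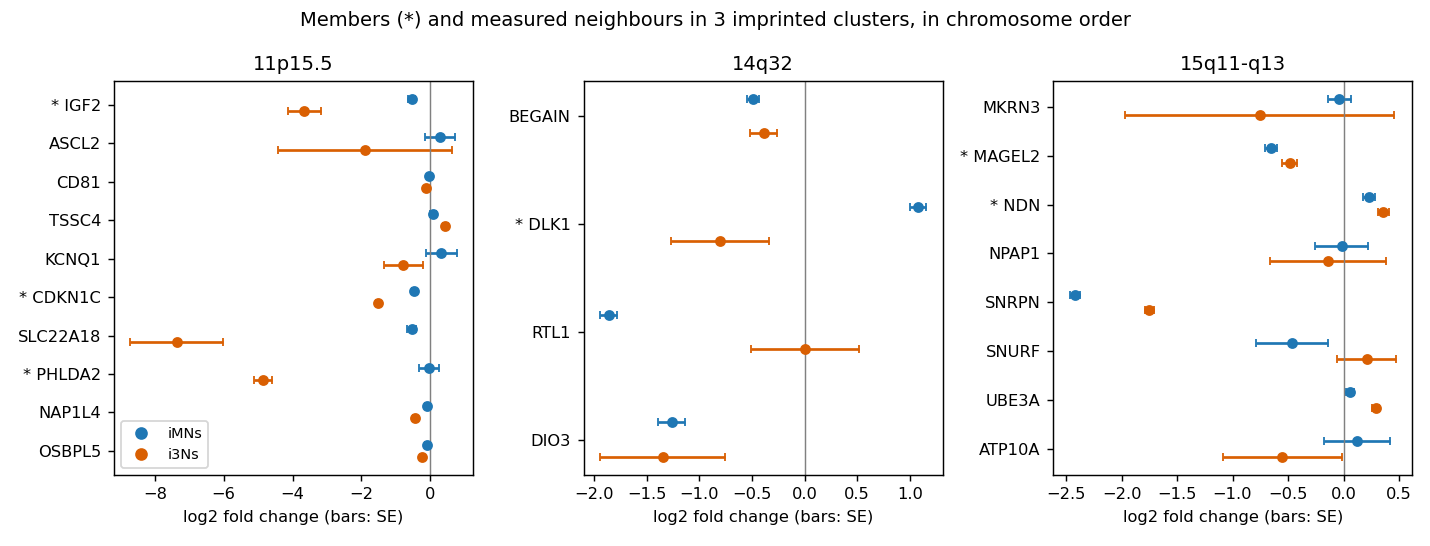
Log2 fold change between SMN-KD and SCR (x axes, of different range) for the imprinted growth genes (marked *) and their measured neighbours (y axes, in order along the chromosome, main identifiers) in 3 clusters, in iMNs (blue) and i3Ns (orange). Bars are standard errors. On 11p15.5 the i3N points of IGF2, CDKN1C, SLC22A18, PHLDA2 and ASCL2 lie left of -1, that of ASCL2 with a standard error of 2.53. On 14q32 DLK1 lies right of 0 in iMNs while RTL1 and DIO3 lie left of -1. On 15q11-q13 SNRPN lies furthest left in both cell types.

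Of 21 imprinted genes listed from other places in the genome, 16 had a row in iMNs and 17 in i3Ns. None was called in iMNs by the authors' DESeq2 values, beside 3.34% of all identifiers. There 3 fell and 1 rose at an adjusted p-value under 0.01 alone, beside 18.7% and 17.1% of all identifiers. An unadjusted p-value under 0.05 was found for 5. In i3Ns DIRAS3, a growth-restraining small GTPase read from the paternal copy, was called lower, from 49.4 to 7.80 (log2 fold change -2.66 ± 0.58), and FAM50B was called lower, from 162 to 43.3 (-1.91 ± 0.26). These 2 of 17 compare with 9.53% of all identifiers called lower in i3Ns. At an adjusted p-value under 0.01 alone, 5 of these genes fell and 6 rose in i3Ns, beside 25.7% and 22.8% of all identifiers.

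Other genes of the IGF pathway were read in the same way around IGF2. Of 20 with a row, 7 were called lower and 1 higher in i3Ns, beside 9.53% and 4.23% of all identifiers, and 14 fell and 3 rose at an adjusted p-value under 0.01 alone, beside 25.7% and 22.8%. In iMNs 1 was called lower, IGF1, at -1.29 ± 0.60 with a mean of 63.6 in SCR and 26.0 in SMN-KD, beside 2.37% of all identifiers called lower, and 4 fell and 7 rose at an adjusted p-value under 0.01 alone, beside 18.7% and 17.1%. IGF1 was named after its value was seen. The median log2 fold change of the list was -0.47 in i3Ns and 0.05 in iMNs.

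The receptors of IGF2 changed by less than 0.5 on the log2 scale. IGF1R, the receptor through which IGF2 signals growth, rose by 0.46 ± 0.04 on the log2 scale in i3Ns (adjusted p = 7.52e-38, DESeq2) and was at -0.09 ± 0.04 in iMNs (adjusted p = 0.095, DESeq2). INSR, the insulin receptor, rose by 0.49 ± 0.04 in i3Ns and 0.16 ± 0.04 in iMNs. IGF2R, which takes IGF2 to the lysosome, fell by 0.42 ± 0.06 in i3Ns and rose by 0.14 ± 0.04 in iMNs.

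Of the 6 listed binding proteins that hold IGFs outside the cell, 5 fell in i3Ns, all but IGFBP3 (log2 fold change 0.01 ± 0.25). IGFBP2 went from 2235 to 677, a log2 fold change of -1.72 ± 0.10, IGFBP4 was at -2.07 ± 0.23 and IGFBP5 at -2.03 ± 0.28. IGFBP6 and IGFBP7, at means of 1.13 and 1.85 in SMN-KD, had log2 fold changes of -4.83 ± 0.99 and -4.01 ± 0.93. In iMNs IGFBP3 rose by 0.77 ± 0.17, from 199 to 339, IGFBP4 rose by 0.48 ± 0.12 and IGFBP6 fell by 0.77 ± 0.39. IGFBP2, IGFBP5 and IGFBP7 were at -0.14 ± 0.07, -0.13 ± 0.08 and -0.39 ± 0.34 in iMNs and did not pass the test. IGFBP3 was named after its values were seen. STC2, an inhibitor of the proteases that cleave IGF-binding proteins, fell by 2.30 ± 0.39 in i3Ns and rose by 0.74 ± 0.17 in iMNs. IRS4, a docking protein of the receptors, fell by 1.49 ± 0.21 in i3Ns, and IGFALS, which stabilizes circulating IGF complexes, rose by 2.11 ± 0.53 there, from 10.4 to 45.1.

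**Figure D4:**
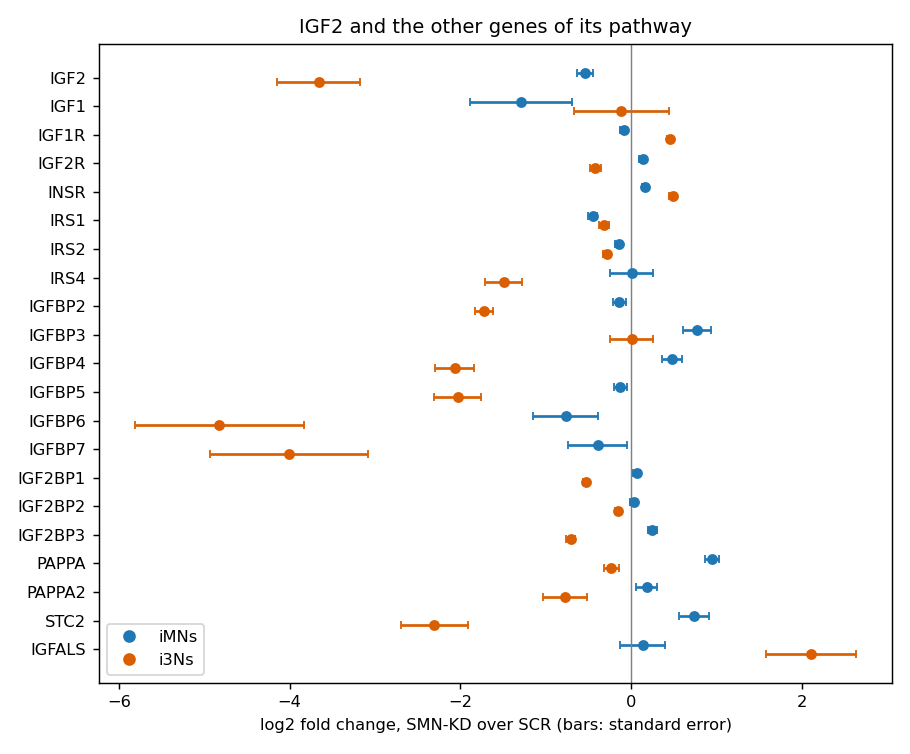
Log2 fold change between SMN-KD and SCR (x axis) for IGF2 and 20 other genes of its pathway (y axis) in iMNs (blue) and i3Ns (orange). Points are values in the authors' deposited tables and bars are standard errors. In i3Ns IGF2, IRS4, IGFBP2, IGFBP4, IGFBP5, IGFBP6, IGFBP7 and STC2 lie left of -1, while the receptors IGF1R, INSR and IGF2R lie within 0.5 of 0.

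Relatives of CDKN1C and PHLDA2 were read in the same way. Of 6 other CDK inhibitors, 3 fell and 2 rose in i3Ns at an adjusted p-value under 0.01 alone, beside 25.7% and 22.8% of all identifiers. CDKN1A (p21) rose there from 3296 to 9346 (adjusted p = 1.24e-27, DESeq2) and CDKN2B (p15) rose by 1.14 ± 0.13 on the log2 scale, while CDKN2A, at low counts, fell by 1.98 ± 0.54. In iMNs CDKN1A rose by 0.73 ± 0.07 and none of the 6 was called by the authors' DESeq2 values, beside 3.34% of all identifiers. There 2 were lower and 1 higher at an adjusted p-value under 0.01 alone, beside 18.7% and 17.1% of all identifiers. An unadjusted p-value under 0.05 was found for 4. PHLDA3, a target of p53 that like PHLDA2 is a small pleckstrin homology protein, went from 993 to 2941 in i3Ns and rose by 1.57 ± 0.08, and it rose by 0.34 ± 0.07 in iMNs. PHLDA1, the other gene of that list, went from 3917 to 1983 in iMNs and fell by 0.98 ± 0.06, and it was at 0.17 ± 0.07 in i3Ns (adjusted p = 0.039, DESeq2). PHLDA1 was named after its values were seen. CDKN1C and PHLDA2 were both lower in the same i3Ns.

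Among Notch pathway genes listed around DLK1, 3 of 13 identifiers were called lower in i3Ns, beside 9.53% of all identifiers. Of 14 in iMNs, where 3.34% of all identifiers were called, none was called by the authors' DESeq2 values. There 2 fell and 1 rose at an adjusted p-value under 0.01 alone, beside 18.7% and 17.1% of all identifiers. An unadjusted p-value under 0.05 was found for 6. NOTCH3 went from 1077 to 98.0 in i3Ns, a log2 fold change of -3.46 ± 0.13, NOTCH2 from 1167 to 286 and HES1, a target of Notch signalling, from 77.1 to 9.77. In iMNs, where DLK1 was higher, their log2 fold changes were 0.01 ± 0.17, -0.15 ± 0.16 and 0.05 ± 0.26.

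The difference in log2 fold change between cell types was tested for the listed genes that are not imprinted growth genes themselves. Of 41 identifiers of neighbours and other imprinted genes in both tables, 14 differed at an adjusted p-value under 0.01 by a Wald test, and of 60 identifiers of the pathway lists, 34 differed, beside 34.0% of all 16093 identifiers in both tables. The test used the deposited fold changes and standard errors, whose ratio falls short of the deposited p-values at low counts. It is therefore approximate for weakly expressed genes, and the 34.0% carries the same limit.

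Markers of cell types also differed between SMN-KD and SCR, in both directions. They are counted as lower or higher at an adjusted p-value under 0.01 alone. At that threshold 25.7% of all identifiers were lower and 22.8% higher in i3Ns, and 18.7% and 17.1% in iMNs. In i3Ns the summed mean of 10 mesenchymal markers was 11391 in SCR and 1349 in SMN-KD, 8.44 times lower, with 5 of 10 markers lower (COL1A1, COL1A2, COL3A1, LUM and PDGFRB), 2 higher (PDGFRA and TWIST1) and 3 not passing the test. DCN and PRRX1 were near 0 there, with means over 6 libraries of 3.89 and 5.58. In iMNs the summed mean of the 8 with a row was 1996 in SCR and 3339 in SMN-KD, with 3 of 8 higher and none lower. The summed mean of pluripotency markers in i3Ns was 1654 in SCR and 7267 in SMN-KD, with 2 of 8 identifiers higher and none lower. Most of that sum is LIN28A, which went from 1559 to 6872, and DPPA4 went from 43.9 to 341. The identifiers of POU5F1 and NANOG had means over 6 libraries between 2.72 and 13.9. The summed mean of progenitor and glial markers was 1.20 times lower in SMN-KD i3Ns, with 4 of 9 identifiers lower, and most of that sum is NES, which went from 31764 to 27560. The cycling cell markers MKI67 and TOP2A of that list fell far more in i3Ns, MKI67 from 938 to 106, 8.86 times lower, and TOP2A from 558 to 63.6, 8.77 times lower. In iMNs they were at log2 fold changes of 0.15 ± 0.32 and 0.14 ± 0.28. The summed mean of pan-neuronal markers was 1.19 times lower in both cell types. That of 8 motor neuron markers was 1.22 times lower in SMN-KD iMNs and 1.04 times higher in SMN-KD i3Ns. In i3Ns 5 of these were lower, among them CHAT, from 937 to 117, and 2 higher, among them PRPH, from 2530 to 9136. Of 6 glutamatergic markers in i3Ns, 3 were lower and 2 higher, among them NEUROD1, from 1270 to 6808, and their summed mean was 1.17 times lower. In bulk samples, fewer cells of a type and less RNA per cell cannot be told apart. The part of these markers in the lower PHLDA2, IGF2 and CDKN1C of SMN-KD i3Ns was not tested.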

How the data were processed

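Total RNA was depleted of ribosomal RNA and sequenced as paired-end reads by the authors. Per the labels and methods, the authors used fastp for trimming, Salmon for quantification and DESeq2 for the comparison; versions, annotation and filters on low counts are not given in the sources used here. Of each cell type, the authors deposited 1 table with the mean over 6 libraries of counts divided by size factors (a signal averaged over both groups), the log2 fold change between SMN-KD and SCR and its standard error on the log2 scale, and p-values with adjusted p-values. These comparison columns are the authors' own and were used because values per library were not used here; no column of values was left out. A count test could not be run.

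Group means were derived from the mean and the fold change, assuming 3 libraries a group and a fold change that was not shrunken. Where a deposited fold change was shrunken, the derived means lie too close together, which may hold for weakly expressed genes. The call required an adjusted p-value below 0.01 with a log2 fold change beyond 1 in either direction. Differences between cell types were tested with a Wald z and Benjamini-Hochberg adjustment over 16093 identifiers. The computation was run on simulated data with normal errors of the deposited size and differences planted in genes with small standard errors. That simulation cannot show how the test behaves on shrunken or low-count values. Standard errors of the fold changes are those the authors deposited. Coordinates and 3′-UTRs (MANE Select, else Ensembl canonical) are from GENCODE 44 on GRCh38, the hg38 build the submitters' processing notes name. Of the identifiers, 693 in iMNs and 878 in i3Ns are outside it. By that annotation 13 and 20 rows are long noncoding RNAs.

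The imprinted growth genes and all lists were chosen with earlier results of these data known. The genes named are all imprinted growth genes, at most the 8 called genes with the largest fold change of each other list, the partners in each cluster and the receptors of IGF2, and genes outside this rule are marked as such, except markers. Alternatives changed the thresholds, a count filter, centring, standard errors, the summing of identifiers and the definition of a match. Python 3.11.15 with SciPy 1.17.1 was used.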

Additional observations from a re-analysis of the deposited data

Results flagged for a closer look

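The log2 fold change of 8 of 25 neighbour identifiers in both tables differed between i3Ns and iMNs at an adjusted p-value under 0.01 (Wald z, Benjamini-Hochberg adjustment), beside 34.0% of all identifiers. The difference, i3Ns minus iMNs, was negative for SLC22A18, at -6.84 ± 1.36 (SE), for its second identifier, at -2.17 ± 0.66, for NAP1L4, at -0.34 ± 0.06, and for PON2, at -0.60 ± 0.16. It was positive for RTL1, at 1.87 ± 0.52, for SNRPN, at 0.67 ± 0.06, for TSSC4, at 0.35 ± 0.11, and for UBE3A, at 0.23 ± 0.05. PON2 was named after its value was seen. The value of RTL1 rests on a mean of 6.54 normalized counts in i3Ns. For such weakly expressed genes the Wald z is approximate. No library could be compared with the others of its group, since values per library were not analysed here.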

How the results depend on the processing

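No paired analysis was possible because the tables hold no values per library, and for the same reason no replicate could be left out. With no threshold on the fold change, the identifiers called among imprinted growth genes were 8 in iMNs and 9 in i3Ns (2 and 5 with the threshold), among neighbours and other imprinted genes 11 and 23 (4 and 7), and among pathway genes 26 and 44 (1 and 17). Of all identifiers, 35.8% in iMNs and 48.5% in i3Ns passed at that setting. At the other settings the share of all identifiers called was not computed, so the counts that follow are not set against it. Above 1.5-fold, 5 imprinted growth genes and 11 pathway genes were called in iMNs. With a minimum mean normalized count of 100, 1 imprinted growth gene and 0 pathway genes were called in iMNs, against 2 neighbours and other imprinted genes in all (SNRPN and FAM50B) and 11 pathway genes in i3Ns, and the median log2 fold change of the imprinted growth genes in iMNs was -0.47. Of the pathway identifiers in iMNs, 36 of 62 had an unadjusted p-value under 0.05 in the authors' DESeq2 values. With standard errors doubled, calls were 1 imprinted growth gene and 0 pathway genes in iMNs and 2 neighbours and other imprinted genes in all and 11 pathway genes in i3Ns, and the listed genes that differed between cell types went from 48 to 19. With identifiers summed, 1 imprinted growth gene in iMNs and 3 in i3Ns passed the fold threshold, and the median in i3Ns was -0.65, as it was with identifiers of the main annotation alone. Without PHLDA2, a choice made after seeing the data, 1 was called in iMNs and 3 in i3Ns. Matches to guide bases 2 to 8 alone were in 0 imprinted growth genes of the iMN table and 1 of the i3N table, and in the longest annotated 3′-UTR, also chosen after seeing the data, 2 of the iMN table held a match. The other 34 values stayed within 1.5 times or within the median standard error. Weakly expressed genes carry the largest standard errors, and depth per library is unknown.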

Other observations

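Relatives and regulators of the other imprinted growth genes were measured too. PLAGL2 and PLAG1, relatives of PLAGL1, rose in i3Ns by 0.70 ± 0.05 and 0.46 ± 0.12 on the log2 scale, both at an adjusted p-value under 0.01, and neither was called. Of 13 identifiers of MAGE partners and relatives in i3Ns, none was called by the authors' DESeq2 values, beside 13.8% of all identifiers. At an adjusted p-value under 0.01 alone 2 fell and 3 rose, beside 25.7% and 22.8% of all identifiers. An unadjusted p-value under 0.05 was found for 6. Among 7 genes of imprint maintenance with a row, UHRF1, which guides the maintenance methyltransferase to DNA, went from 544 to 118 in i3Ns, and DNMT3B from 437 to 174, both called lower, with log2 fold changes of -2.20 ± 0.21 and -1.32 ± 0.15. In iMNs UHRF1 was at -0.01 ± 0.18 and DNMT3B fell by 0.63 ± 0.12. DNMT1, the maintenance methyltransferase, fell by 0.31 ± 0.05 in i3Ns and was named after its value was seen. The cycling cell markers MKI67 and TOP2A had log2 fold changes of -3.15 ± 0.17 and -3.13 ± 0.17 in i3Ns and 0.15 ± 0.32 and 0.14 ± 0.28 in iMNs. Their part in the values of UHRF1, DNMT3B and DNMT1 was not tested. Methylation was not measured in these libraries.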
